A study of Mus musculus with 5 samples.

Results

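The cells described here were 263 of 3713 common myeloid progenitor (CMP) cells, 7.08% of that library (95% Clopper-Pearson interval 6.28 to 7.96), that carried transcripts of the high-affinity IgE receptor. They were chosen by their own counts, as cells with 1 or more UMI (a unique molecular identifier, 1 captured RNA molecule) of Fcer1a or Ms4a2, fewer than 2 of Car1 and fewer than 5 of Pf4. They carry the working label basophil and mast-primed. They are called the positive cells here, and they were set against the other 3450 CMP cells. The library came from bone marrow of wild-type C57BL/6 mice, sorted for lineage-negative, KIT-positive, SCA1-negative, CD34-positive, CD16/32-negative cells, and was made with the droplet-based 10x Genomics 3' chemistry. The same rule was applied to the granulocyte-monocyte progenitor (GMP) gate, which differs by being CD16/32-positive, to the megakaryocyte-erythroid progenitor (MEP) gate, which is negative for both CD34 and CD16/32, and to the lineage-negative SCA1-positive KIT-positive (LSK) gate. The labels do not state how many mice were pooled, and each gate has 1 distinct library, so no difference has a replicate check and no p-value is given. Intervals are at 95% and cover counting error only.

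The high-affinity IgE receptor is assembled from an alpha chain that binds IgE (Fcer1a), a signal-amplifying beta chain (Ms4a2) and a gamma chain shared with other Fc receptors (Fcer1g). Mast cells and basophils carry the complete receptor and store histamine, proteoglycan and proteases in granules that are released when IgE is cross-linked. Both lineages arise in the bone marrow and depend on GATA2, and the carboxypeptidase gene Cpa3 is transcribed early in them.

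Sequences immediately upstream of the starts of the 3 marker genes are shown because all 3 hold AGATAA, a hexamer bound by GATA factors. Transcripts of Gata1 and Gata2, which belong to this family, are described further on. Each is the 250 bases before the RefSeq start (GRCm38.p6, minus strand of the genome, written 5′ to 3′ along the gene), with AGATAA or its reverse complement TTATCT in capitals. They lie at chr1:173227230-173227479 for Fcer1a, chr19:11623720-11623969 for Ms4a2 and chr3:20242182-20242431 for Cpa3.
Fcer1a: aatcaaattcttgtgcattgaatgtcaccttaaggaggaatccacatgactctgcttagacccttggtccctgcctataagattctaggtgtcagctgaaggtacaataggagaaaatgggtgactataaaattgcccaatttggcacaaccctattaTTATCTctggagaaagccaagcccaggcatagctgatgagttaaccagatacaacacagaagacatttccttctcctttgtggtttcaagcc
Ms4a2: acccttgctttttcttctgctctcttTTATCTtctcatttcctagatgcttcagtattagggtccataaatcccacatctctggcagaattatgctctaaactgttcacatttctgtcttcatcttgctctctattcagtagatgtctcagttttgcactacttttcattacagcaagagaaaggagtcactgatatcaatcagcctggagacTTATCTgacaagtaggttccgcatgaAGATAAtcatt
Cpa3: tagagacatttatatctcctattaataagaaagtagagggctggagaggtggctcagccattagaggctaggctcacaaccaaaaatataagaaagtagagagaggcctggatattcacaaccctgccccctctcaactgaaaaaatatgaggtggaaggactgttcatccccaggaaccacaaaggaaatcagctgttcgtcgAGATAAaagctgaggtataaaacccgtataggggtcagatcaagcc
The search covered AGATAA and TGATAA on both strands. Fcer1a had 1 match, its first base 92 bases before the start, Cpa3 had 1 at 46 bases, and Ms4a2 had 3, at 224, 37 and 11 bases. The windows of Gata2, Hdc, Gata1, Csrp3, Lmo4 and Apoe, genes also described here, had 0 matches of either hexamer. Hexamers ending in G were not searched for: TGATAG occurs in the Hdc window and AGATAG in windows of Csrp3 and Apoe. Of 32851 RefSeq windows of the same length, 16.6% held a match. A match of letters does not show binding.

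Fcer1a (chr1:173221284-173227214) and Ms4a2 (chr19:11615523-11623719), both protein-coding genes on the minus strand of GRCm38, defined the cells, so their levels are a description. Ms4a2 was the more often detected: 151 positive cells carried Ms4a2 alone, 52 carried Fcer1a alone and 60 carried both. Fcer1a was at 168 CPM (UMIs of a gene per 1000000 UMIs of the set) in the positive cells and 0.513 CPM in other CMP cells, and Ms4a2 was at 318 and 1.89 CPM. Most cells passed on little: 123 had a single UMI of the pair, 43 had 2, 47 had 3 to 4 and 50 had 5 or more, up to 19. A further 39 cells with either transcript were left out by the upper limits, 36 of them by Car1, the carbonic anhydrase of early erythroid cells, and 3 by Pf4, the platelet factor of megakaryocytes. At the Car1 limit, the 18 positive cells with 1 UMI of Car1 had Cpa3 at 542 CPM, and the 8 cells left out with 2 UMIs had it at 285 CPM. At the Pf4 limit, 3 positive cells with 4 UMIs had Cpa3 at 304 CPM and no cell had exactly 5.

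The library held 26919088 UMIs after 25 of 3738 barcodes were dropped. Positive cells had a median of 5373 UMIs and 1951 detected genes, and other CMP cells had 7043 UMIs and 2248 genes, so shares of cells with a transcript are also given after every cell was thinned to 3000 UMIs, which left out 20 positive and 222 other cells. The summed profile of the positive cells rests on 1567521 UMIs and that of other CMP cells on 25351567. The Poisson interval of a count of 0 reaches 2.35 CPM in the positive cells and 0.146 CPM in other CMP cells. The floor of 3 counts used in ratios is 1.91 CPM in the positive cells and 0.118 CPM in other CMP cells. Of the positive cells, 7.22% were among the 110 highest doublet scores of the library, as were 2.64% of other CMP cells. Between 36 and 56 barcodes of the CMP library also occurred in each other library.

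Cpa3, the label's marker that the rule did not use, was higher in the positive cells. It was at 982 CPM in the positive cells and 173 CPM in other CMP cells, a log2 ratio of 2.50 (interval 2.42 to 2.59). It was detected in 82.1% of positive cells and 30.1% of other CMP cells, and in 75.7% and 21.7% after thinning. The monocyte-side cells with 5 or more UMIs of Irf8, which should lack Cpa3, had it in 9.35% of cells at a median of 8811 UMIs, and in 4.45% after thinning; both shares of the positive cells lay above this background. The positive cells held 25.9% of all Cpa3 UMIs of the library. Within the positive cells the count ran from 0 to 30 UMIs per cell with a median of 3. Among CMP cells with neither receptor transcript, 137 had 10 or more UMIs of Cpa3.

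Across the library, 82 of 2853 genes with 50 CPM or more in either set were at least 2-fold higher in the positive cells (2.87%), and 41 were at least 2-fold lower (1.44%). The 4 genes of the rule are left out of these counts. Over the 10859 genes with a mean of 1 CPM the median log2 ratio was 0.05. Beside Cpa3, the genes with the largest ratios included the histamine-forming enzyme Hdc, the LIM-domain genes Csrp3 and Lmo4, the transcription factors Gata1, Gata2 and Ikzf2, apolipoprotein Apoe, the granule tetraspanin Cd63 and the lysophospholipid acyltransferase Lpcat2. The lowest ratios were those of the neutrophil granule genes S100a8, Camp, S100a9 and Ngp, followed by Ly6c2 and F13a1 of monocytes.

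**Figure D1:**
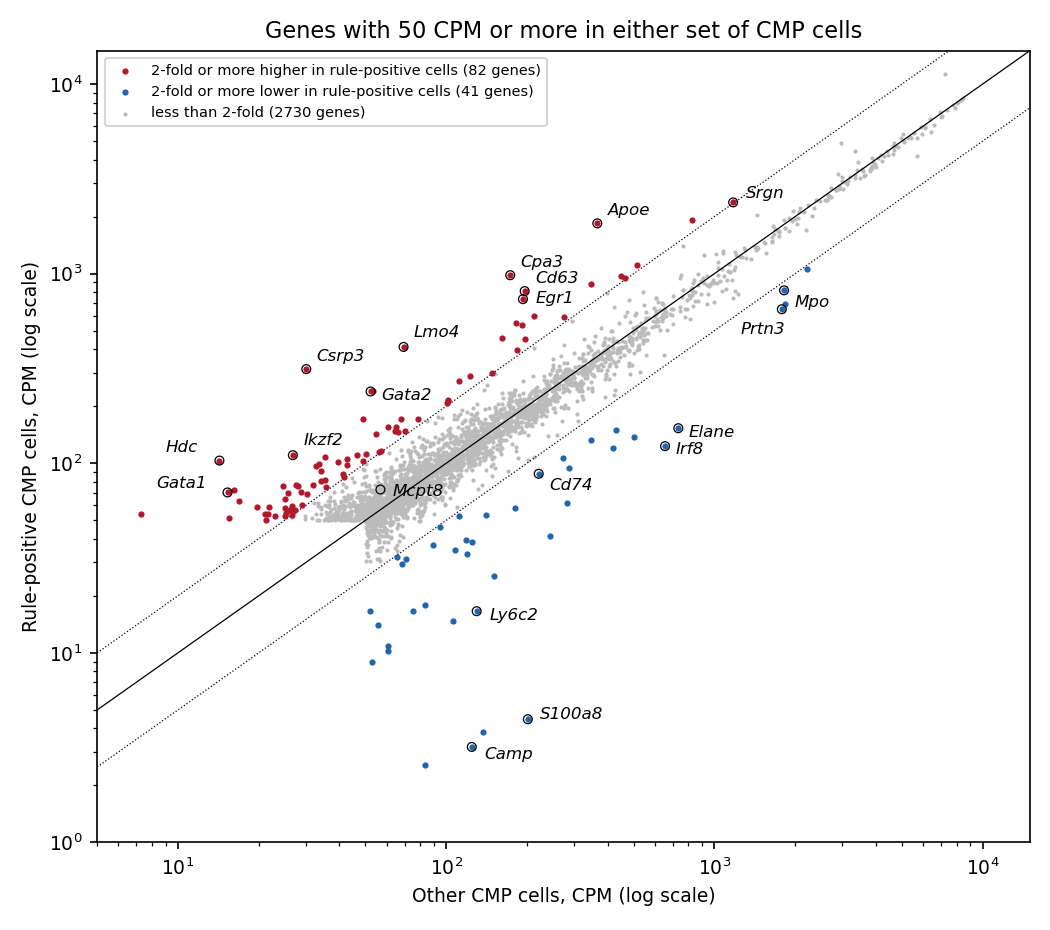
Level of each gene with 50 CPM or more in the positive cells (vertical axis, CPM, log scale) against other CMP cells (horizontal axis, CPM, log scale), each point 1 gene, with dotted lines at 2-fold. The 82 higher genes include Csrp3, Hdc, Lmo4 and Cpa3 and the 41 lower genes include S100a8, Irf8 and Elane, while Mcpt8 lies near the line of equality.

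Of the genes for stored mediators and their granules, Hdc, Cd63 and Srgn were higher. Hdc (chr2:126593667-126619299), which makes histamine, was at 103 CPM in the positive cells and 14.3 CPM in other CMP cells (log2 2.86, 2.58 to 3.13), and Cd63 was at 810 and 196 CPM (2.04, 1.95 to 2.13). The granule proteoglycan Srgn was at 2378 CPM in the positive cells and 1175 CPM in other CMP cells (1.02, 0.97 to 1.07), just past 2-fold. The mast cell chymases and tryptases were not detected: Cma1, Tpsab1, Tpsb2 and Mcpt4 had no UMI in either set. The basophil protease Mcpt8 did not reach 2-fold, at 72.7 CPM in the positive cells and 56.9 CPM in other CMP cells (0.35, 0.07 to 0.63). Only 14.1% of positive cells had an Mcpt8 UMI, against 20.3% of other CMP cells, and after thinning the shares were 9.88% (6.43 to 14.3) and 10.7% (9.70 to 11.9). Of the Mcpt8 UMIs in positive cells, 5 cells held 55.3%. Prss34, another basophil protease, named after its value was seen, was seen in 1 positive cell, with 5 UMIs, and in no other CMP cell. Against other CMP cells the label thus rested on Cpa3, Hdc, Gata2 and Cd63 and not on Mcpt8, Prss34 or the chymases and tryptases of mast cells. Gata2 did not set the positive cells apart from all others. It was at 239 CPM in them and at 212 CPM in cells with 2 or more UMIs of Car1 and no receptor transcript.

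Of the 18 basophil and mast markers left when the receptor genes are set aside, 6 were tested, 4 were higher in the positive cells (Cpa3, Gata2, Hdc and Cd63), none was lower and 5 had no UMI in the positive cells. The median log2 ratio of the 13 with a mean of 1 CPM was 2.50, beside 0.05 over all genes. Prss34, Cyp11a1 and Cd200r3 reached that mean only through the positive cells, and the median was 2.12 over the 10 members with 1 CPM over the whole library, a choice made after seeing the data. The low-level members were chosen for naming after their values were seen: Il1rl1, the IL-33 receptor, was at 18.5 CPM in the positive cells and 1.5 CPM in other CMP cells, Slc45a3 at 26.8 and 3.87 CPM, Cyp11a1 at 5.74 and 0.158 CPM and Cd200r3 at 4.47 and 0.237 CPM. All 4 were under the 50 CPM minimum. Il1rl1 had 29 UMIs in 27 positive cells and none in the Irf8 cells. Rab44 was at 66.3 CPM in the positive cells and 46.6 CPM in other CMP cells (0.51), and the prostaglandin D synthase Hpgds and leukotriene C4 synthase Ltc4s were at 4.47 and 7.02 CPM in the positive cells against 3.55 and 7.73 CPM in other CMP cells.

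Among 12 genes of histamine and lipid mediator synthesis, 3 were tested, Hdc was higher and none was lower, with a median log2 ratio of 0.33 over 11 members. Below the minimum, the vesicular monoamine transporter Slc18a2, which loads histamine into granules, was at 38.9 CPM in the positive cells and 7.65 CPM in other CMP cells. Alox5, the 5-lipoxygenase that starts leukotriene synthesis, was at 20.4 and 1.38 CPM, and 47.8% of its UMIs in the library lay in the positive cells. Its partner Alox5ap was at 275 CPM in the positive cells and 231 CPM in other CMP cells (0.25).

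The shared gamma chain of the receptor did not follow the alpha and beta chains against other CMP cells as a whole. Fcer1g was at 297 CPM in the positive cells and 483 CPM in other CMP cells (log2 -0.70, -0.84 to -0.57), short of 2-fold. It was at 716 CPM in the Irf8 cells. Other sets without receptor transcripts lay below the positive cells. Cells with 2 or more UMIs of Car1 had Fcer1g at 196 CPM, and cells with 5 or more of Pf4 at 184 CPM. Of the 18 receptor and proximal signalling genes without the rule's pair, 5 were tested and 1 was higher, the adaptor Lat, named after its value was seen, at 54.2 CPM in the positive cells and 21.7 CPM in other CMP cells (1.32, 0.97 to 1.65). The list's median was 0.09, close to that of all genes. The kinases lay below the 50 CPM minimum: Lyn was at 26.2 CPM in the positive cells and 26.9 CPM in other CMP cells (-0.04, -0.53 to 0.42), Syk at 38.9 and 27.1 CPM (0.52, 0.12 to 0.90) and Fyn at 17.9 and 10.97 CPM (0.70, 0.09 to 1.27).

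Cytokine receptors gave 1 higher gene of 4 tested, the common gamma chain Il2rg, at 50.4 CPM in the positive cells and 21.3 CPM in other CMP cells (1.24), with a list median of 0.30. Il2rg fell short of 2-fold, at 0.89, when 2 or more receptor UMIs were required. Csf2rb, the shared beta chain of the IL-3, IL-5 and GM-CSF receptors, was at 40.2 CPM in the positive cells and 14.3 CPM in other CMP cells (1.49, 1.08 to 1.88), under the minimum, whereas Il3ra, named after its value was seen, was at 35.7 and 29.8 CPM. Kit, the stem cell factor receptor used in the sort, was at 58.1 and 46.1 CPM (0.33). Flt3, a receptor of lymphoid and dendritic progenitors, was at 6.38 CPM in the positive cells and 42.0 CPM in other CMP cells. Of the cytokine and chemokine list, none of the 4 tested passed in either direction, with a median of 0.14, which was -0.02 over the members with 1 CPM over the whole library. Ccl3 was at 228 and 422 CPM and Ccl4 at 417 and 339 CPM. Cd34, also a sorting antigen, was at 140 CPM in the positive cells and 240 CPM in other CMP cells (-0.78, -0.98 to -0.59).

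Of 28 lineage transcription factors, 14 were tested, 4 were higher and 1, Irf8, was lower, with a list median of 0.13. Gata2 (chr6:88193891-88207032) was at 239 CPM in the positive cells and 52.3 CPM in other CMP cells (2.19, 2.03 to 2.36) and was detected in 66.5% and 24.1% of cells. Gata1 (chrX:7959260-7978071), which drives erythroid, megakaryocyte, mast and eosinophil programmes, was at 70.2 and 15.3 CPM (2.2, 1.88 to 2.51). Lmo4 was at 411 and 69.4 CPM (2.57, 2.43 to 2.70) and Ikzf2, an Ikaros-family factor, at 110 and 26.8 CPM (2.04, 1.79 to 2.28). Other factors of the granulocyte and macrophage side did not pass the fold rule. Cebpa was at 54.9 CPM in the positive cells and 60.5 CPM in other CMP cells (-0.14, -0.47 to 0.17), and Spi1, which encodes PU.1, at 179 and 226 CPM (-0.34). Below the minimum and named after their values were seen, Gfi1 was at 2.55 and 7.18 CPM (-1.49, -3.38 to -0.11) and Tfec at 5.10 and 16.6 CPM (-1.70, -2.92 to -0.71). Mitf, the classical mast cell factor, was named after its value was seen and had 1.28 CPM in the positive cells and 2.52 CPM in other CMP cells.

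Csrp3, a LIM-domain protein known from muscle, had the largest ratio among the genes at 50 CPM or more, the rule's genes aside. It was at 314 CPM in the positive cells and 30.1 CPM in other CMP cells (3.38, 3.22 to 3.55), in 54.8% and 8.64% of cells, and in 41.2% and 5.27% after thinning. It was not peculiar to them: CMP cells with 2 or more UMIs of Car1 and no receptor transcript, 228 in number, had it at 325 CPM. Apoe was at 1843 CPM in the positive cells and 366 CPM in other CMP cells (2.33), and at 2148 CPM in the Car1 cells.

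Against other CMP cells as a whole, some erythroid markers were higher in the positive cells and others were level. The Car1 limit bound the positive cells only, and other CMP cells kept the 228 Car1 cells. Those cells had Klf1 at 132 CPM. Cells without receptor UMIs under the Car1 and Pf4 limits had it at 4.62 CPM. Erythroid ratios, level ones included, are thus partly set by the rule. Of 14 markers without Car1, 3 were tested and 2 were higher, Gata1 and the carbonic anhydrase Car2, which was at 598 CPM in the positive cells and 212 CPM in other CMP cells (1.5, 1.40 to 1.60). Their median log2 ratio was 0.91 over 11 members, and Klf1, the erythroid Krüppel-like factor, was at 35.1 and 10.8 CPM. The other tested marker, Blvrb, was short of 2-fold at 54.9 and 41.2 CPM (0.41). Under the minimum, Aqp1 was level at 16.6 and 16.2 CPM (0.04). Hbb-bt, named after its value was seen, was at 3.83 and 6.31 CPM (-0.72). Car2 is not confined to erythroid cells in this series, since other LSK cells had it at 1209 CPM. The summed level of the 14 per cell ran from 0 to 2524 CPM between the 5th and 95th percentile in positive cells, with a median of 612 CPM, and from 0 to 2044 CPM with a median of 147 CPM in other CMP cells; Ermap, Rhd and Sphk1 had no UMI in the positive cells. Of 11 megakaryocyte markers without Pf4, 2 were tested and Itga2b, the platelet integrin that early mast progenitors also carry, was higher at 77.2 and 27.6 CPM (1.48), while Vwf was at 1.28 and 4.46 CPM. Their median log2 ratio was -0.42 and their summed median per cell was 262 CPM in positive cells and 168 CPM in other CMP cells. The Pf4 limit bound the positive cells only. Other CMP cells kept 125 cells with 5 or more UMIs of Pf4 and no receptor UMI, which had Vwf at 102 CPM. Among cells without receptor UMIs under the Car1 and Pf4 limits, Vwf was at 0.648 CPM and Itga2b at 13.4 CPM. The lower megakaryocyte values are thus partly set by the rule. Of 12 stem cell markers, the 2 tested were both higher, Meis1 at 74.6 and 35.7 CPM (1.06) and Angpt1 at 148 and 70.0 CPM (1.08), with a list median of 0.44. Both fell below 2-fold under some alternative processing. Whether RNA of other cells or pairs of cells in 1 droplet add to these values was not tested beyond leaving out the highest doublet scores, which moved Cpa3 to a log2 ratio of 2.65.

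**Figure D2:**
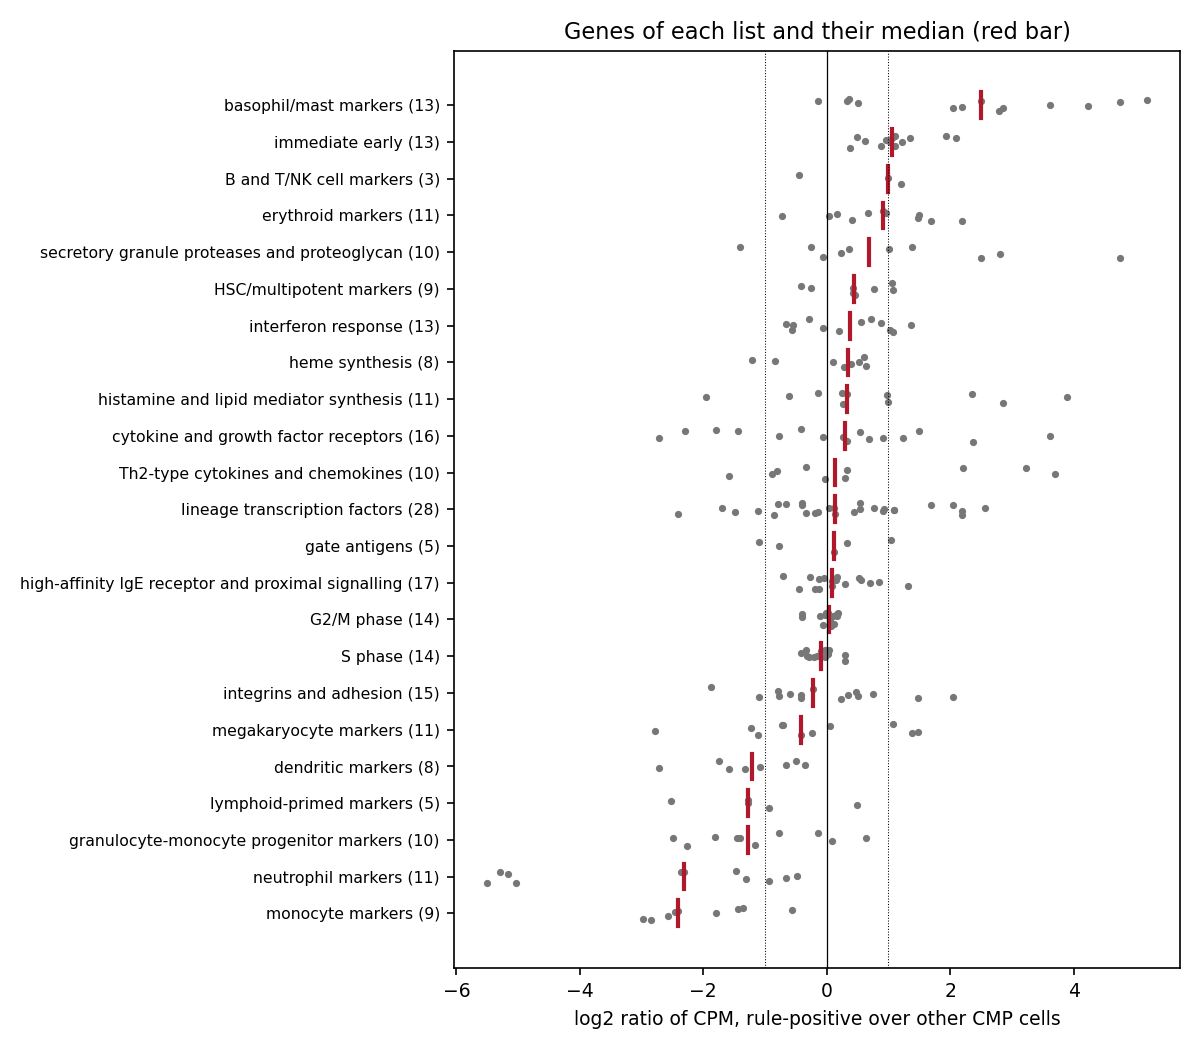
Log2 ratio of CPM in positive over other CMP cells (horizontal axis) for the genes of each list with a mean of 1 CPM, each grey point 1 gene, the red bar the list's median and the number of genes in brackets. Basophil and mast markers had a median of 2.50 and monocyte markers of -2.41; the dotted lines mark 2-fold.

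Of the immediate early genes, which respond within minutes to stimulation and to tissue handling, 7 of 12 tested were higher and none was lower. Their median log2 ratio was 1.06, and 0.99 with TMM scaling factors. Egr1 was at 734 CPM in the positive cells and 193 CPM in other CMP cells (1.92, 1.83 to 2.02), Jun at 1925 and 823 CPM (1.23) and Junb at 970 and 450 CPM (1.11), while Fos was at 1398 and 761 CPM (0.88), short of 2-fold. The Car1 cells had Egr1 at 720 CPM, the Irf8 cells at 57.3 CPM and the cells with 5 or more UMIs of Pf4 at 72.1 CPM. The cell cycle lists were level: none of 13 S-phase and none of 12 G2/M genes tested passed in either direction, with medians of -0.09 and 0.04, and Mki67 was at 111 CPM in the positive cells and 104 CPM in other CMP cells.

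Markers of granulocyte-monocyte progenitors, monocytes and neutrophils were lower in summed level in the positive cells. Of the granulocyte-monocyte list, 5 of 8 tested were lower and none higher, with a median log2 ratio of -1.28 over 10 members. Neutrophil elastase Elane was at 153 CPM in the positive cells and 734 CPM in other CMP cells (-2.26, -2.45 to -2.08), and Mpo, the myeloperoxidase of primary granules, at 817 and 1820 CPM (-1.16, -1.24 to -1.07). Mpo was still seen in 66.5% of positive cells and 82.2% of other CMP cells. The Elane UMIs were unevenly spread, since 5 positive cells held 58.3% of them.

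All 5 tested monocyte markers were lower, with a median of -2.41 over 9 members. Irf8 was at 123 CPM in the positive cells and 655 CPM in other CMP cells (-2.41, -2.62 to -2.21), in 18.3% and 63.7% of cells. Ly86, a companion of the toll-like receptor relative RP105, was at 25.5 and 151 CPM, and Ly6c2, a monocyte surface antigen, at 16.6 and 130 CPM (-2.97). All 4 tested neutrophil markers were lower, with a median of -2.31 over 11 members, yet not by the share of cells that carried them: S100a8 was at 4.47 CPM in the positive cells and 202 CPM in other CMP cells, but had a UMI in 2.66% and 3.36% of cells, so the difference lay in the UMIs per carrying cell. The antigen-presentation genes Cd74 and H2-Aa were lower as well, Cd74 at 88.0 and 221 CPM, with 94.9% of its UMIs in 5 positive cells. Both turned round when UMIs of both receptor genes were required, to log2 ratios of 0.24 and 0.38.

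The positive cells differed among themselves by how much receptor transcript they carried. From 0 to 5 or more summed UMIs, among cells under the Car1 and Pf4 limits, Cpa3 stood at 179, 816, 868, 920 and 1482 CPM for 0, 1, 2, 3 to 4 and 5 or more UMIs. The largest step was between none and a single UMI. Lmo4 stood at 68.0, 266, 387, 491 and 670 CPM over the same classes, and Cd63 at 181, 601, 773, 900 and 1206 CPM. Gata2 did not keep climbing, at 38.5, 186, 284, 328 and 240 CPM. Mcpt8 had another course, at 61.7 CPM with no receptor UMI, 17.1 CPM with 1, 41.1 with 2, 122 with 3 to 4 and 172 CPM with 5 or more. Its last 2 values lean on single cells. With 3 to 4 receptor UMIs, 1 cell held 15 of the 36 Mcpt8 UMIs, and with 5 or more, 1 cell held 28 of 56. Car2 stood at 161, 736, 522, 514 and 434 CPM, with its highest value at a single UMI. These classes rest on 3058, 123, 43, 47 and 50 cells, and they use the counts of the rule, so they are a description.

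**Figure D3:**
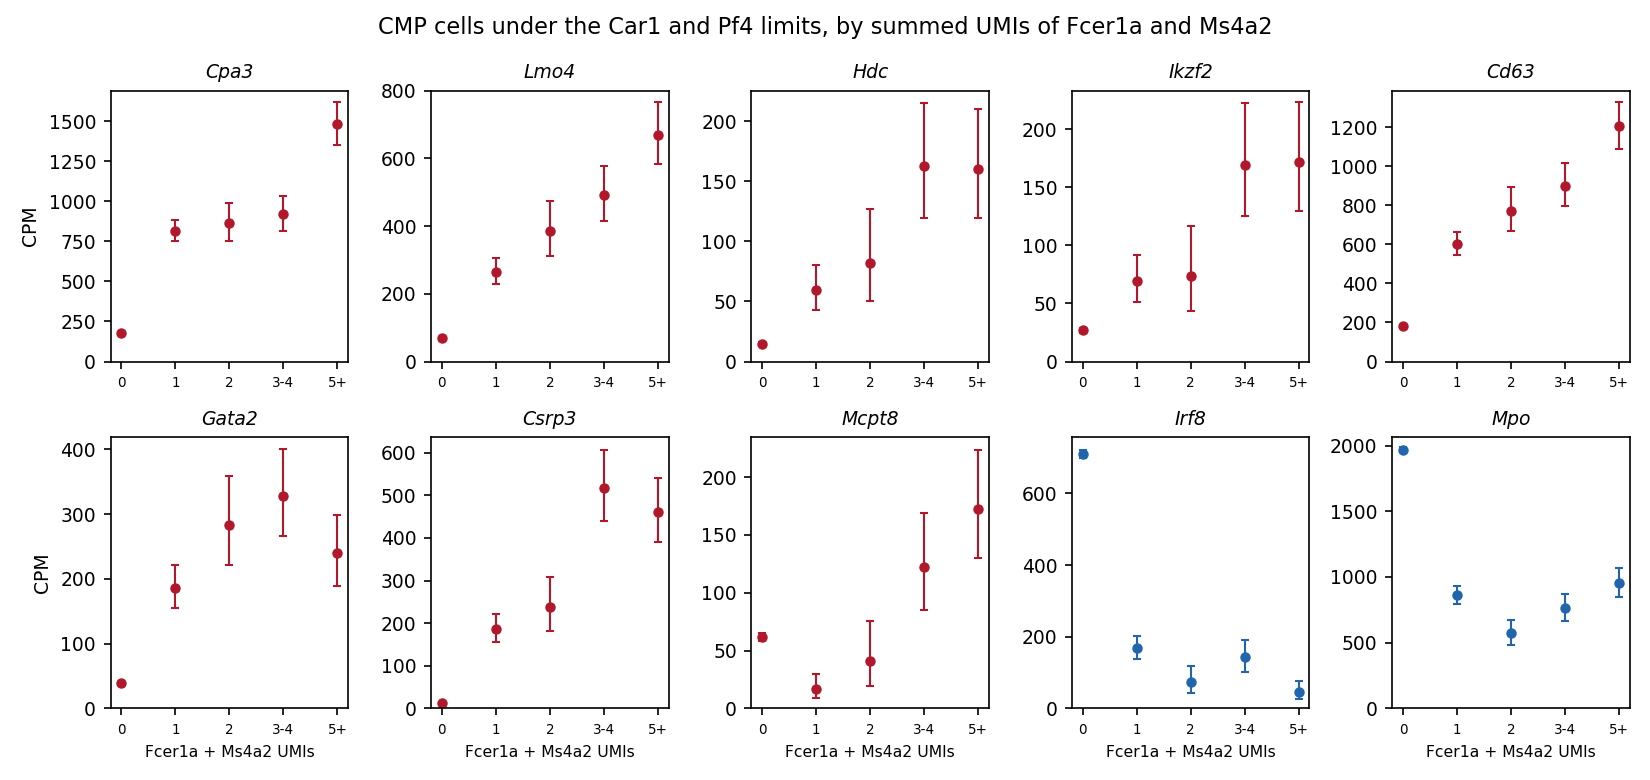
CPM (vertical axes, linear from 0) of 10 genes in CMP cells under the Car1 and Pf4 limits, by the summed UMIs of Fcer1a and Ms4a2 (horizontal axes); points are the summed cells of each class and bars are 95% Poisson intervals. Cpa3, Lmo4 and Cd63 were lowest at 0 and highest at 5 or more UMIs, Mcpt8 was lowest at 1 UMI, and Irf8 and Mpo were highest at 0.

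The positive cells also differed by which chain was detected. Cells with Fcer1a alone had Cpa3 at 560 CPM (480 to 649), cells with Ms4a2 alone at 1078 CPM (1011 to 1147) and cells with both at 1109 CPM (1001 to 1227). Ikzf2 stood at 45.0, 117 and 152 CPM in the same order, and Il1rl1 at 0, 20.8 and 29.3 CPM. Csrp3 was alike in cells with a single chain, at 244 and 247 CPM, and stood at 556 CPM in cells with both. Median UMIs of the 3 groups were 5474, 5542 and 4802. The groups use the counts of the rule and also differ in the amount of receptor transcript. The 52 cells with Fcer1a alone held 78 receptor UMIs and the 151 with Ms4a2 alone held 338. The 60 cells with both held 186 of Fcer1a and 160 of Ms4a2. Chain and amount cannot be told apart here, so these values are a description.

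Other transcripts divided the positive cells further. The 47 positive cells without a Cpa3 UMI had Hdc at 7.22 CPM and Irf8 at 321 CPM, and the 216 with one had Hdc at 124 CPM and Irf8 at 80.6 CPM. After thinning, Hdc was detected in 32.6% of 184 positive cells with Cpa3 (25.9 to 39.9) and in 6.78% of 59 without (1.88 to 16.5). The 37 positive cells with Mcpt8 had Elane at 562 CPM and Mpo at 1700 CPM, and the 226 without it had Elane at 56.0 CPM and Mpo at 608 CPM. After thinning, Elane was detected in 37.5% of 24 positive cells with Mcpt8 (18.8 to 59.4) and in 10.0% of 219 without (6.40 to 14.8). The cells with Mcpt8 were deeper, with a median of 7449 UMIs against 5228. Gata1 went the other way: thinned, Elane was detected in 4.35% of 46 cells with Gata1 (0.531 to 14.8) and in 14.7% of 197 without (10.1 to 20.5), intervals that overlap.

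Cells outside the rule shared parts of the profile. The 137 cells with 10 or more UMIs of Cpa3 and no receptor UMI had Hdc at 85.1 CPM, Gata2 at 108 CPM and Ikzf2 at 105 CPM, but Csrp3 at 8.61 CPM and Mpo at 1894 CPM. The positive cells had Csrp3 at 314 CPM and Mpo at 817 CPM. The 53 cells with 5 or more UMIs of Mcpt8 and no receptor UMI had Cpa3 at 122 CPM, Gata2 at 28.8 CPM and Csrp3 at 0, with the neutrophil-side protease Ctsg at 3654 CPM. Both sets were picked by 1 transcript after values were seen.

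The positive cells were next set against the CMP cells of each upper limit. Over the 228 Car1 cells, 56 of 2943 genes were higher (1.9%) and 45 lower (1.53%). Of the 82 genes higher against all other CMP cells, 10 were also higher against the Car1 cells, among them Cpa3, Hdc, Cd63, Lmo4, Ikzf2 and Lpcat2, 2 were lower and 70 were within 2-fold or not tested. Cpa3 was at 982 CPM in the positive cells and 144 CPM in the Car1 cells, Hdc at 103 and 8.58 CPM, and Gata2, within 2-fold, at 239 and 212 CPM. The Car1 cells had more of the water channel Aqp1, at 16.6 CPM in the positive cells and 196 CPM in the Car1 cells, and of Klf1, at 35.1 and 132 CPM. Over the 125 Pf4 cells, 173 of 3057 genes were higher (5.66%) and 132 lower (4.32%). Of the 82 genes, 41 were also higher against these and 5 lower, among them Itga2b at 77.2 CPM in the positive cells and 358 CPM in the Pf4 cells.

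**Figure D4:**
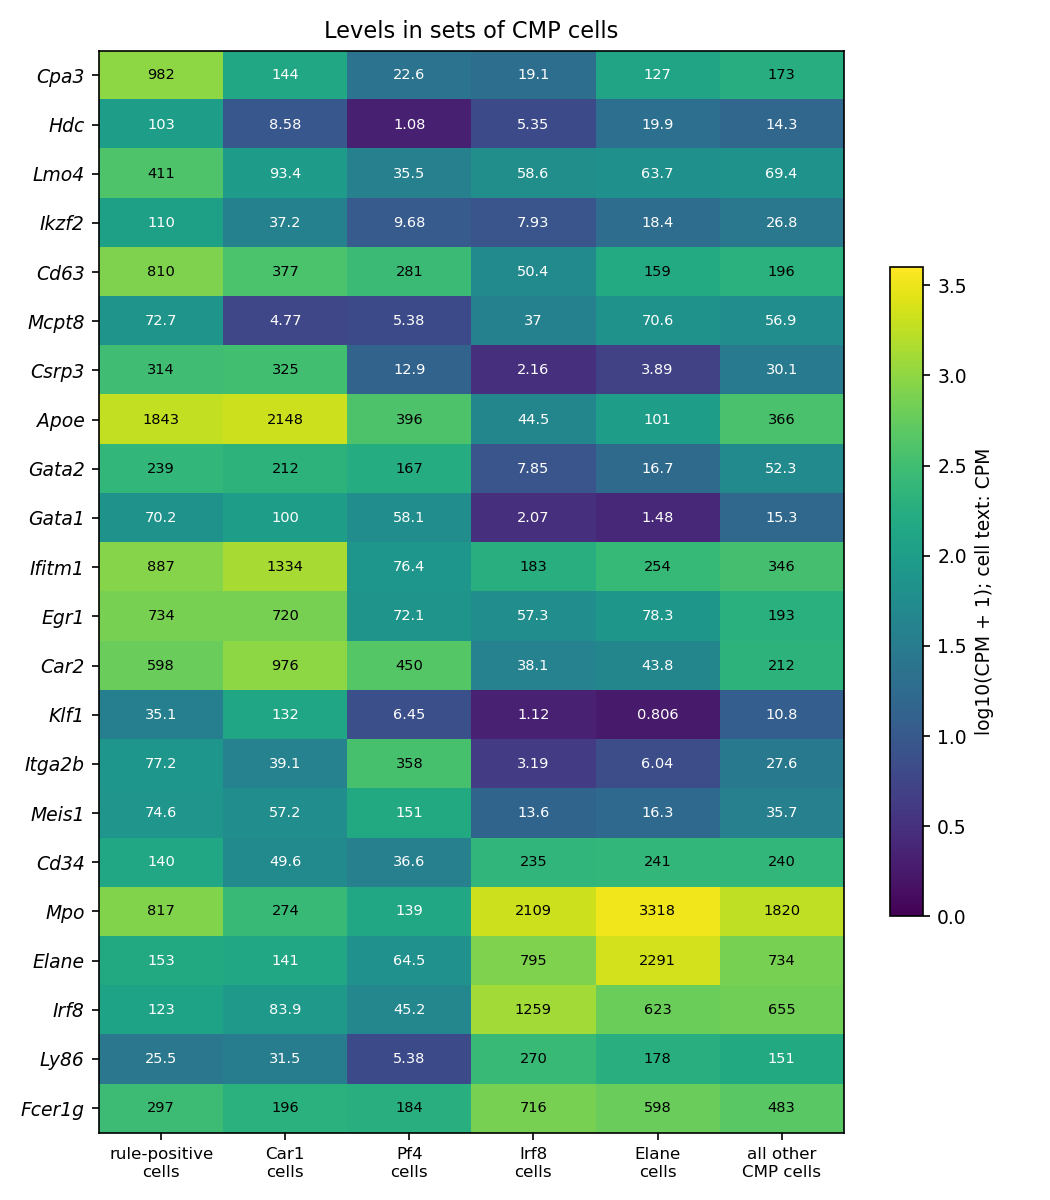
CPM of 22 genes (rows; numbers are CPM, colour is log10 of CPM + 1) in the positive cells, then in CMP cells with 2 or more UMIs of Car1, 5 or more of Pf4 (both without receptor UMIs), 5 or more of Irf8 and 5 or more of Elane (both not positive), and in all other CMP cells. Cpa3, Hdc, Lmo4 and Ikzf2 were highest in the positive cells, whereas Csrp3, Apoe, Gata2 and Egr1 were at like levels in the Car1 cells.

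The GMP library offered the same rule in cells that played no part in choosing the CMP cells. There, 395 cells were positive, 4.92% of 8027. Of 2698 genes, 69 were higher in positive than in other GMP cells (2.56%) and 7 lower (0.259%). Of the 82 genes higher in CMP, 42 were also higher in GMP, which is 51.2% of the CMP list and 60.9% of the GMP list. A positive ratio in GMP was found for 82 of 82, beside a median log2 ratio of -0.04 over the 2698 genes. Only 48 of the 82 reached 50 CPM in GMP and could be called there. Of the 41 lower genes, 3 were also lower in GMP, namely Irf8, Ly86 and Unc93b1, and 40 had a negative ratio, with 35 of the 41 at 50 CPM or more in GMP. Cpa3 was at 1271 CPM in positive and 81.3 CPM in other GMP cells (log2 3.97), Gata2 at 154 and 6.66 CPM (4.53) and Csrp3 at 338 and 1.82 CPM (7.54).

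**Figure D5:**
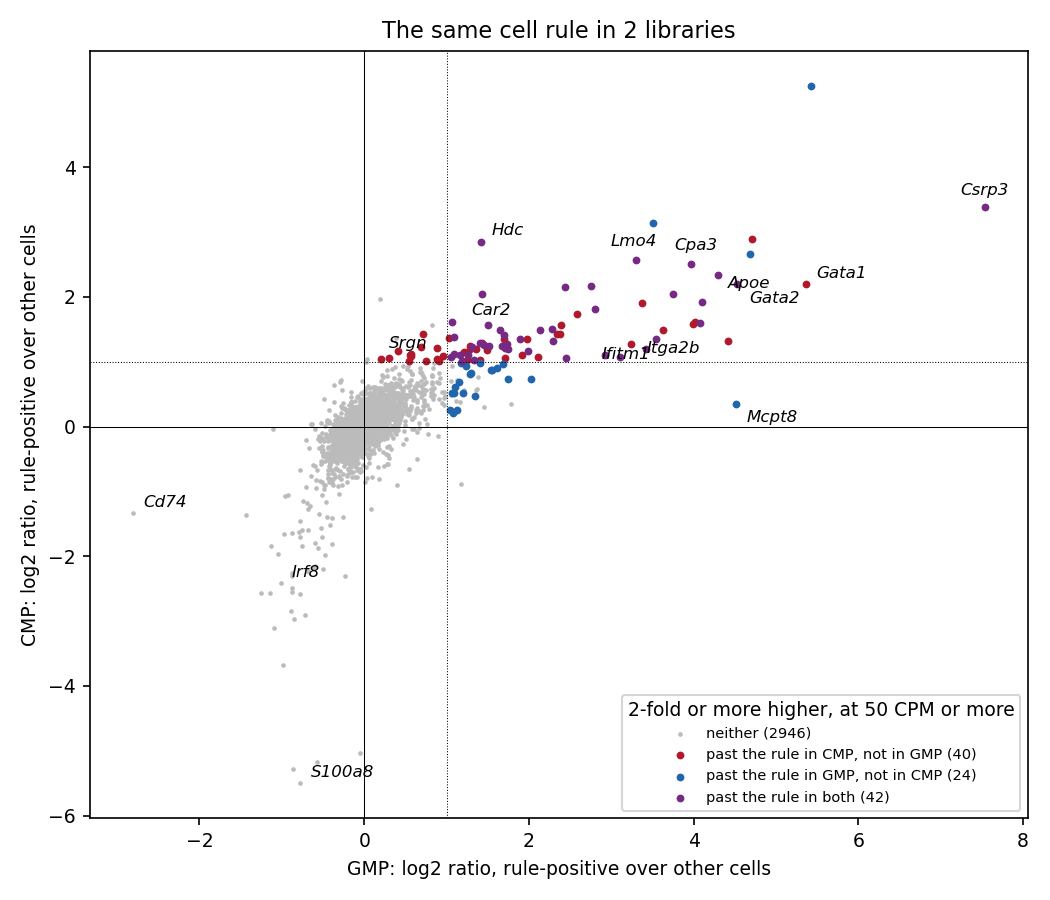
Log2 ratio of positive over other cells in CMP (vertical axis) and in GMP (horizontal axis), each point 1 of 3052 genes with 50 CPM or more in either library and a ratio in both; dotted lines mark 2-fold. Csrp3, Cpa3, Gata2 and Lmo4 were past 2-fold in both, and Mcpt8 reached 4.51 in GMP and 0.35 in CMP.

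Set directly against the positive GMP cells, the positive CMP cells had 136 of 2927 genes higher (4.65%) and 86 lower (2.94%). The basophil proteases were on the GMP side: Prss34 was at 3.19 CPM in positive CMP cells and 1584 CPM in positive GMP cells, and Mcpt8 at 72.7 and 1706 CPM. The eosinophil granule gene Prg2 had no UMI in positive CMP cells and was at 2552 CPM in positive GMP cells. With its CMP count raised to the floor of 3 it was 1333-fold lower in CMP, a log2 ratio of -10.38. The upper limit of that ratio's interval was -10.08. Only part of the positive GMP cells carried these transcripts: Prg2 was detected in 16.7% of them, Prss34 in 26.6% and Mcpt8 in 61.3%. Elane was at 153 CPM in positive CMP cells and 6884 CPM in positive GMP cells. On the CMP side, Car2 was at 598 and 65.2 CPM, Egr1 at 734 and 94.9 CPM and Gata1 at 70.2 and 24.6 CPM, while Cpa3 was within 2-fold at 982 and 1271 CPM. The sort gate and the library differ together here and cannot be told apart.

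In the LSK library 56 of 10870 cells were positive, 0.515% (0.389 to 0.668), and most carried the alpha chain: 48 carried Fcer1a and 13 carried Ms4a2. Of the 56, 35 passed on a single receptor UMI. Positive LSK cells were deeper, with a median of 9731.5 UMIs against 5983.5 in other LSK cells. What depth adds to this set was not tested. Cpa3 was at 153 CPM in positive and 22.0 CPM in other LSK cells (log2 2.80, 2.46 to 3.11), and Gata1 was at 52.8 and 4.76 CPM. Of 3143 genes, 33 were higher (1.05%) and 25 lower (0.795%), and 9 of the 82 CMP genes were among the higher ones, 27.3% of the LSK list. A positive ratio in LSK was found for 65 of the 82, and a negative one for 38 of the 41 lower CMP genes. The median log2 ratio over the 3143 genes was 0.07. Hdc was at 16.4 CPM in positive and 1.93 CPM in other LSK cells. In the MEP library 2 of 6284 cells were positive, too few to describe.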

How the data were processed

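The deposited matrices give raw UMI counts for each gene in each barcode. For their making, the submitters' processing notes name the tools Seurat 2.3.0, CASAVA 1.8.2 and Cell Ranger 2.0.0, with mm10 as build, while how the authors filtered cells is not given here. Both CMP samples hold the same matrix, which entered once; its 3738 barcodes are fewer than the CMP cells of the design text, and the others were not analysed here. For LSK, the deepest 10882 barcodes were kept. Barcodes needed at least 500 genes and no more than 10% of UMIs from mitochondrial genes.

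Counts were added up over the cells of each set and scaled to CPM. Intervals came from the Poisson distribution for sums, the binomial distribution conditional on both sums for ratios and the Clopper-Pearson method for shares. Sums under 3 counts were raised to 3 in a ratio; a ratio whose sign this would set was left blank. A gene was called higher or lower at 2-fold with 50 CPM or more in the higher set. Doublets were kept; a score against simulated pairs (scikit-learn 1.9.0) marked the top 0.8% per 1000 cells for an alternative. Named genes were the 15 highest and 10 lowest ratios past the fold rule without predicted, ribosomal and mitochondrial genes, the rule genes and Cpa3, up to 6 genes per list by CPM, the gate antigens and the genes given for sequence; others were named after their values were seen, as were genes named from comparisons with the Car1, Pf4 and GMP cells. Members and the 24 lists were chosen with earlier results of these data known. Of 27998 gene IDs, 27645 are in GENCODE M21, the source of gene coordinates; 56 symbols stand for more than 1 ID. The lists of eosinophil, lymphoid-primed, B and T/NK, integrin, granule, heme and interferon genes are reported in the closing section. The calling was also run on Poisson counts simulated for the 27998 genes of this comparison. In these, 200 genes drawn from those with 50 CPM or more over the library were changed 3-fold. Of the changed genes 100% were called, with 0 others and 94.4% interval coverage. Such counts hold no spread between cells and follow the distribution that the intervals assume. The run thus checks the computation and not the reliability of calls in these data. Computation used Python 3.11.15, numpy 2.4.6, scipy 1.17.1 and pandas 2.3.3, with edgeR 4.0.16 and DESeq2 1.42.0 in R 4.3.3 for scaling factors of the counts only.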

Additional observations from a re-analysis of the deposited data

Results flagged for a closer look

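For 4 named genes the ratio of positive over other cells had opposite signs in the CMP and GMP libraries, with both intervals clear of 0. Ms4a3, a granulocyte-monocyte progenitor gene, had a log2 ratio of 0.64 in CMP and -0.37 in GMP. H2-Ab1, a class II antigen-presentation gene, had -0.49 in CMP and 0.64 in GMP. Ifngr1, the interferon-gamma receptor chain, had 0.68 in CMP and -0.30 in GMP. The chemokine Ccl9 had -0.80 in CMP and 0.18 in GMP. None of these ratios reached 2-fold in either library, and the difference between libraries was not tested.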

How the results depend on the processing

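Requiring 2 or more UMIs of the receptor pair gave a share of 3.77% of CMP cells, UMIs of both genes 1.62%, no upper limits on Car1 and Pf4 8.13%, and thinning to 3000 UMIs before the rule 5.50%. The log2 ratio of Cpa3 was 2.41 with both genes, 2.39 without the limits, 2.65 without the highest doublet scores, 2.40 after thinning and 2.28 as a mean of per-cell CPM. The basophil and mast median was 2.09 after thinning, 2.63 against cells under the same limits, 2.02 as a per-cell mean 2.19 over members at 10 CPM and 2.12 over members at 1 CPM in the whole library, the last chosen after seeing the data. The counts of higher and lower genes were 271 and 169 at a minimum of 10 CPM, 712 and 372 with no minimum beyond 3 counts, and 182 and 99 at a fold of 1.5; with both receptor genes 65 were lower. The share of CMP genes also higher in GMP was 77.4% with 2 or more UMIs and 65.9% after thinning. Cd74 and H2-Aa reversed in sign with both receptor genes, at 0.24 and 0.38, short of 2-fold. The cause of these changes was not tested. TMM and median-of-ratios factors shifted all CMP log2 ratios by -0.08 and -0.07 and gave 70 higher and 44 lower genes each. Over 1404 comparisons of 128 named genes, 222 moved beyond their interval and 2 reversed; of the 64 past 2-fold, 19 fell below it under some alternative, among them Srgn, Junb, Itga2b, Meis1, Angpt1, Il2rg, Lsp1 and H2-Aa. Of 285 comparisons of 22 list medians, 15 moved and 0 reversed. With 1 distinct library per gate, replicates could not be left out. No paired analysis was possible because the result comes from no test and the CMP samples are 1 library.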

Other observations

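The list of granule proteases and proteoglycan, which shares Cpa3 and 6 other genes with the basophil and mast markers, split in direction: of 19, 5 were tested, Cpa3 and Srgn were higher and the protease Ctsg was lower, at 693 CPM in positive and 1838 CPM in other CMP cells, with a median log2 ratio of 0.69 over 10 members, 0.35 over the 9 with 1 CPM over the whole library, and 9 proteases at 0. Granzyme Gzmb, named after its value was seen, was at 8.29 CPM in positive and 1.18 CPM in other CMP cells. Of 16 integrin and adhesion genes, 9 were tested, Itga2b and Cd63 were higher and Emb, a basigin relative, was lower at 137 and 503 CPM, with a median of -0.22. Of 14 interferon response genes, 5 were tested and Ifitm1 was higher, at 887 CPM in positive and 346 CPM in other CMP cells, while Ifitm2 was at 1002 and 872 CPM and Ifitm3 at 291 and 354 CPM; the median was 0.38.

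Of 9 heme synthesis genes, 4 were tested and Alas1 was lower, at 29.3 CPM in positive and 68.2 CPM in other CMP cells, with a median of 0.34 and no UMI of the erythroid form Alas2. Of 10 eosinophil markers, none was tested and 8 had no UMI in positive cells; Siglecf was at 32.5 and 8.84 CPM. Of 10 lymphoid-primed markers, 1 was tested and it was lower, Lsp1 at 37.0 and 89.1 CPM, with a median of -1.27. Both values were -0.64 when UMIs of both receptor genes were required, which ends the call. Of 10 B, T and NK cell markers, 7 had no UMI in positive cells and the 1 tested, Nkg7, was at 795 and 399 CPM (log2 0.99), short of 2-fold. Of 12 dendritic markers, 4 were tested and 2 were lower, Cd74 and H2-Aa, with a median of -1.20. The median was -0.81 with 2 or more receptor UMIs and -0.13 with both genes, where both calls were lost and both signs turned. The median over the 7 gate antigens was 0.11, with none of 2 tested past 2-fold.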
